A study of Mus musculus with 18 samples.

Results

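The GTPases RhoA, Rac and Cdc42 are molecular switches that shape the actin cytoskeleton. Guanine nucleotide exchange factors (GEFs), which include the Dbl-type proteins named Arhgef and the separate DOCK family, load them with GTP and switch them on, and GTPase-activating proteins (GAPs), named Arhgap here, speed up GTP hydrolysis and switch them off. In dendritic cells (DCs) this cycle sets protrusion, contractility and uptake, and loss of DOCK2 or DOCK8 is known to impair leukocyte migration.

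The genes described are the RhoGAP, RhoGEF and DOCK regulators of these GTPases, taken by symbol alone: Arhgap, Arhgef or Dock followed by a number, with or without a letter. The deposited table lists 73 such genes among 62197, and 59 of them reached at least 10 normalized counts in at least 3 of the 18 libraries, as did 17875 genes in all. The 59 members are 30 RhoGAP, 18 RhoGEF and 11 DOCK genes. A normalized count is a gene's read count divided by the size factor of its library, so it is not scaled for gene length. The filter was passed by *Arhgap42* with 3 libraries at 10 or more, and it was missed by *Arhgef5* and *Arhgef26* with 2 libraries each. The other genes that did not pass were *Arhgef33* with 1 such library and, with 0 such libraries, *Arhgap15os*, *Arhgap20*, *Arhgap20os*, *Arhgap33os*, *Arhgap36*, *Arhgap40*, *Arhgap44*, *Arhgef15*, *Arhgef16*, *Arhgef19* and *Arhgef38*. The highest mean among the 14 genes left out was 5.1 normalized counts, and 6 of them were at 0 in every library.

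The libraries are bulk RNA-seq of mouse bone marrow-derived DCs grown for 10 days with a supernatant that contains GM-CSF, in 6 conditions of 3 libraries each. The cPLA_2_ KO cells come from mice in which *Pla2g4a*, the gene of the cytosolic phospholipase cPLA_2_, is deleted by a Cre under the *Itgax* (CD11c) promoter, so that cells that never expressed CD11c keep the gene, and cPLA_2_ WT cells are the controls. Nonconfined cells of each genotype were taken at the end of culture, confined cells were held at a height of 3 µm and collected at 4 h, and LPS cells were given 100 ng/ml lipopolysaccharide for 30 min, washed and taken the next day. Treatment and the time between culture and collection therefore cannot be told apart. The protocol text of the labels mentions LPS for every sample, and the titles and treatment entries were followed. Confinement was compared within each genotype to see which regulators move when cells are flattened and whether that differs in cPLA_2_ KO cells, and LPS stands for activation by a microbial product. The study calls the replicates biological, and the labels do not say whether they came from separate animals or cultures, so the p-values measure only the spread between these libraries.

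Reads on genes per library ranged from 33027230 to 61300021, and the values of all 18 libraries came out as whole reads once each library's size factor was applied. Several libraries did not match their labels or stood apart. *Pla2g4a* was at 697, 686 and 770.4 normalized counts in nonconfined cPLA_2_ WT and 548, 542 and 533 in nonconfined cPLA_2_ KO libraries, and at 1369, 1430.3 and 1321 in confined cPLA_2_ WT and 923, 871 and 919.5 in confined cPLA_2_ KO libraries. Its RNA was thus lower but not absent in these cPLA_2_ KO libraries. Libraries labelled LPS cPLA_2_ WT were at 1005, 969 and 967 and those labelled LPS cPLA_2_ KO at 1065, 1032 and 1028, so *Pla2g4a* was not lower in the latter. The Y-linked gene *Ddx3y* was near 0 in nonconfined and confined cPLA_2_ WT libraries, at 949, 981 and 874 in nonconfined and 1036, 920.2 and 948 in confined cPLA_2_ KO libraries, and at 1271, 0 and 662 in libraries labelled LPS cPLA_2_ WT and 2.12, 1476 and 783 in those labelled LPS cPLA_2_ KO. The genotype of single LPS libraries is therefore uncertain, and the 6 LPS libraries were pooled and compared with the 6 nonconfined ones. Marker levels set the LPS libraries in 3 pairs across the labels, cPLA_2_ WT replicate 1 with cPLA_2_ KO replicate 2, cPLA_2_ WT 2 with cPLA_2_ KO 1 and cPLA_2_ WT 3 with cPLA_2_ KO 3. In replicates 1, 2 and 3 labelled LPS cPLA_2_ WT the neutrophil marker *Ltf* was at 52409, 34871 and 43317 and the eosinophil marker *Epx* at 10640, 5535 and 8046, and in replicates 2, 1 and 3 labelled LPS cPLA_2_ KO they were at 51002, 34306 and 43937 and 10123, 5455 and 8367. Over all genes tested, residuals of the pairs correlated at -0.116, 0.0218 and -0.244, beside -0.336 to -0.0671 for the other 12 combinations. A shared source of each pair is not excluded, and the LPS p-values and intervals treat the 6 as separate. With each pair averaged to 1 value, a choice made after the data were seen, 24 members passed as higher and 26 as lower with LPS, and 17 and 23 between confined cPLA_2_ WT and LPS cells. In the other conditions the genotype and the sex of the donors cannot be told apart. *Xist* was at 27953, 33681 and 30681 in nonconfined and 22734, 33482 and 29759 in confined cPLA_2_ WT libraries and at 12153, 19081 and 14328 and 16980, 24835 and 20600 in cPLA_2_ KO libraries, so the latter hold Y-linked and *Xist* RNA together. Nonconfined cPLA_2_ KO replicate 1 held the lowest of the 6 nonconfined values for 23 of 59 members, among them *Dock2*, *Dock5*, *Dock10* and *Arhgap31*, against 2 of 59 for replicate 2 of the same condition.

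*Ccr7*, a response marker of mature DCs, was at 16165, 15734 and 15753 normalized counts in cPLA_2_ WT libraries without and 33397, 32199 and 33237 with confinement, and at 17366, 15815 and 16173 and 8907, 8891 and 8957 in cPLA_2_ KO libraries. Libraries labelled LPS cPLA_2_ WT held 47815, 53026 and 50041 and those labelled LPS cPLA_2_ KO 54853, 48218 and 52112.

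The label DC was checked against 8 markers (*Itgax*, *H2-Ab1*, *H2-Aa*, *Cd74*, *Ciita*, *Flt3*, *Zbtb46* and *Cd86*), all of which were tested and none of which was at 0. Their summed level, 55.8% of it from *Cd74*, was 438090, 412930 and 418370 in cPLA_2_ WT and 519260, 490530 and 508620 in cPLA_2_ KO libraries without confinement, 387480, 360050 and 371270 and 362290, 348230 and 361020 in the same genotypes with confinement, and 521020 to 613000 with a median of 564240 with LPS. Single DC markers went apart: in confined cPLA_2_ WT cells 1 of 8 passed as higher, *Cd86* at 1.39, and 6 as lower, with *Ciita* at -1.03 and *Flt3* at -1.53 over 2-fold. In confined cPLA_2_ KO cells 0 passed as higher and 7 as lower, and with LPS 7 and 0. Apart from *Cd86* at 1.78, the LPS rises that passed ran from 0.16 for *H2-Ab1* to 0.65 for *Zbtb46*. When every library was instead scaled to the same total, the median LPS change of all genes was -0.461. The LPS count of DC markers therefore depends on the scaling, and it is given for the size factor scale only. By the study's methods DCs were harvested as loosely attached cells, to leave behind granulocytes, which float, and macrophages, which hold to the dish. Markers of such cells were measured as well, and these too moved between the conditions. The summed level of 8 neutrophil markers, 47.5% of it from *S100a9*, was 238750, 243830 and 242190 in cPLA_2_ WT and 369490, 332190 and 357350 in cPLA_2_ KO libraries without confinement, 154010, 146800 and 144580 and 333030, 346020 and 329980 in the same genotypes with confinement, and 276700 to 312350 with a median of 293280 with LPS. All 8 passed as lower in confined than in nonconfined cPLA_2_ WT cells, 3 of 8 passed as lower in cPLA_2_ KO cells, and all 8 were higher in confined cPLA_2_ KO than confined cPLA_2_ WT cells. For 4 eosinophil markers, led by *Prg2* with 61.7%, the sum was 28181, 27896 and 27812 in cPLA_2_ WT and 67608, 63231 and 65185 in cPLA_2_ KO libraries without confinement, 7418, 6942 and 6883 and 16396, 15911 and 16836 in the same genotypes with confinement, and 23085 to 39730 with a median of 31768 with LPS. For 5 markers of mast cells and basophils, led by *Cpa3* with 49.8%, it was 6123, 6341 and 6214 in cPLA_2_ WT and 9678, 9285 and 9168 in cPLA_2_ KO libraries without confinement, 2643, 2465 and 2493 and 4119, 4034 and 4146 in the same genotypes with confinement, and 5829.7 to 6429 with a median of 6042 with LPS. Of these, 3 of 4 eosinophil markers and 5 of 5 mast cell and basophil markers fell with confinement in either genotype.

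The sum of 7 macrophage markers, 48.8% of it from *Adgre1*, was 16591, 16319 and 16658 in cPLA_2_ WT and 18646, 19429 and 19169 in cPLA_2_ KO libraries without confinement, 13498, 12788 and 12866 and 12491, 11533 and 12211 in the same genotypes with confinement, and 18169 to 23143 with a median of 20684 with LPS. The sum of 5 lymphocyte markers, 95.8% of it from *Cd3g*, was 2377, 2342 and 2334 in cPLA_2_ WT and 3046, 2770.3 and 2972 in cPLA_2_ KO libraries without confinement, 733, 773 and 664 and 983, 1208 and 1046 in the same genotypes with confinement, and 396 to 518 with a median of 494 with LPS. Of the macrophage markers 5 of 7 fell with confinement in cPLA_2_ WT cells, and of the lymphocyte markers 3 of 5 did. The sum of 5 markers of dividing cells, 61% of it from *Top2a*, was 31602, 32917 and 32836 in cPLA_2_ WT and 24051, 25532 and 24748 in cPLA_2_ KO libraries without confinement, 19475, 20632 and 20152 and 17912, 18983 and 18160 in the same genotypes with confinement, and 12880 to 17203 with a median of 15290 with LPS. With confinement 4 of 5 dividing cell markers fell in cPLA_2_ WT and 3 of 5 in cPLA_2_ KO cells, and 4 of 5 fell by over 2-fold with LPS. No marker on these lists was at 0 in every library. Their part in the results on the 59 members was not tested, and in bulk RNA fewer cells of a type and less RNA per cell cannot be told apart.

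**Figure D1:**
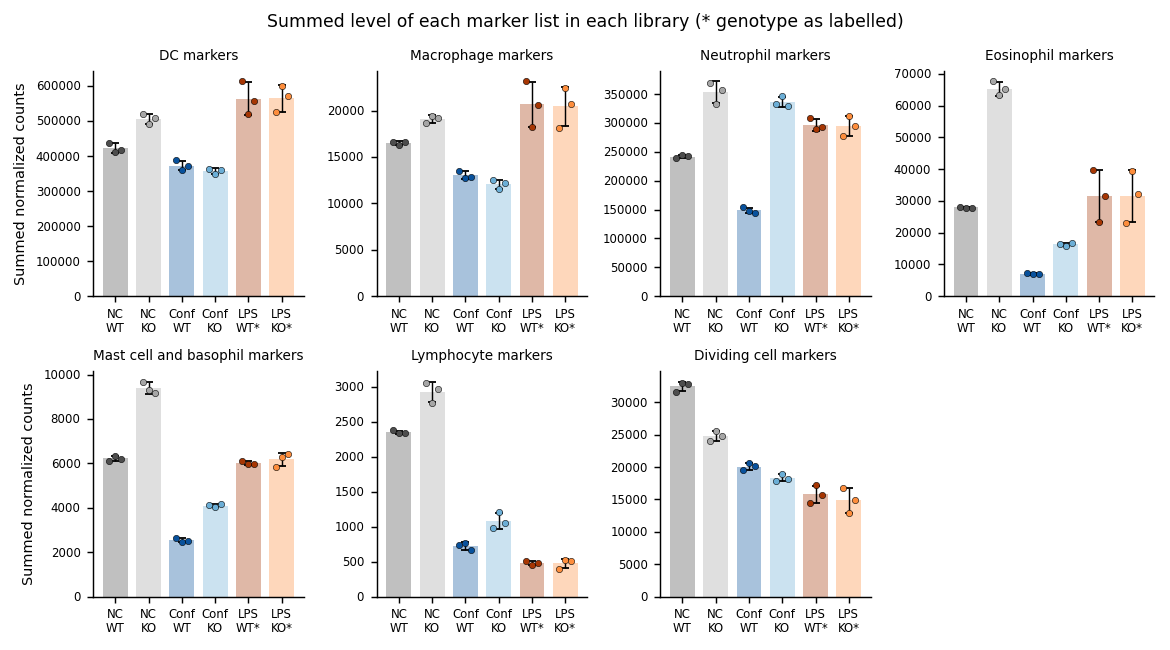
Summed normalized counts of each marker list in each of the 18 libraries. Points are libraries, bars the mean of 3 libraries and whiskers the SD, and the genotype of LPS libraries is as labelled. Neutrophil markers ran from 144580 to 154010 in confined cPLA_2_ WT and from 329980 to 346020 in confined cPLA_2_ KO libraries.

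Per kilobase (kb) of exon, the members highest in nonconfined cPLA_2_ WT libraries were *Arhgap45* at a mean of 3020 normalized counts per kb, *Arhgap9* at 1499.9, *Arhgef1* at 1412 and *Arhgap30* at 748. In libraries labelled LPS cPLA_2_ WT they were *Arhgap45* at 2627, *Arhgef3* at 2229.8, *Arhgef1* at 1102 and *Arhgap30* at 962. Of the DOCK genes *Dock8* was at 517 and *Dock10* at 257 per kb in nonconfined cPLA_2_ WT libraries, and at 245 and 264 in confined cPLA_2_ WT libraries. Together the members took 0.334% ± 0.00494 (SD, n = 3) of the normalized counts of nonconfined cPLA_2_ WT libraries, 0.326% ± 0.0174 in nonconfined cPLA_2_ KO, and 0.239% ± 0.00123 and 0.282% ± 0.00193 in the same genotypes with confinement. In libraries labelled LPS cPLA_2_ WT and LPS cPLA_2_ KO the share was 0.245% ± 0.00139 and 0.24% ± 0.00216, while the members' summed normalized counts had means of 119600 and 116710 there, beside 114050 and 113970 in nonconfined cPLA_2_ WT and cPLA_2_ KO libraries.

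Changes are log2 fold changes of (normalized count + 1) from a limma fit over all 17875 genes. A gene passed the test at an adjusted p under 0.05, and it was called over 2-fold if its absolute log2 fold change was also above 1. With confinement of cPLA_2_ WT cells, 11 of 59 members passed as higher and 31 as lower, where 28.2% and 28.4% of all genes did. Over 2-fold, 6 were higher and 11 lower, beside 11.4% and 7.62% of all genes. The median change of the members was -0.407, and that of all genes tested was -0.00548. When every library was instead scaled to the same total, the median of all genes was -0.226, and 11 members passed as higher and 36 as lower. The shares of all genes that passed on that scale are not given, here or below. Splits with the same total per library therefore cannot be read as particular to the members. In cPLA_2_ KO cells 11 members passed as higher and 27 as lower with confinement, beside 22.8% and 23.4% of all genes, and 3 and 6 were over 2-fold, beside 6.43% and 5.53%. The members' median there was -0.171 against 0.0102 for all genes, and it was the same with *Arhgap8*, which was at 0 in confined cPLA_2_ KO cells, set at its bound. Without nonconfined cPLA_2_ KO replicate 1 the members higher in cPLA_2_ KO cells came to 7, with 0 of them over 2-fold, and without confined cPLA_2_ KO replicate 2 the number over 2-fold was 1.

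With LPS 24 members passed as higher and 26 as lower, beside 37.2% and 34.3% of all genes, and 12 and 15 were over 2-fold, beside 15.6% and 13.4%. The median absolute change with LPS was 0.963 for members and 0.594 for all genes. With the same total per library the median of all genes was -0.461, and 14 members passed as higher and 37 as lower, with 5 and 20 over 2-fold. On that scale *Arhgap1*, *Arhgap5*, *Arhgap21*, *Arhgap30* and *Dock5* turned from higher to lower, while 5 members no longer passed, among them *Arhgap17*, *Arhgef10l*, *Dock6* and *Dock10*. Confinement and LPS were compared with the same nonconfined libraries, so their values below stand side by side. Compared directly, 17 members were higher and 26 lower in confined cPLA_2_ WT than in LPS cells, beside 24.5% and 29.8% of all genes, with 4 and 6 over 2-fold beside 6.97% and 7.84%. With the same total per library, where the median of all genes was 0.269, this split became 25 higher and 12 lower, *Arhgap4* and *Arhgap10* turned from lower to higher, and 12 members no longer passed, among them *Arhgap26*, *Arhgap45*, *Arhgef2* and *Dock10*. Over 2-fold, 7 were then higher and 4 lower. *Arhgap12* passed in 0 of these 7 comparisons.

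**Figure D2:**
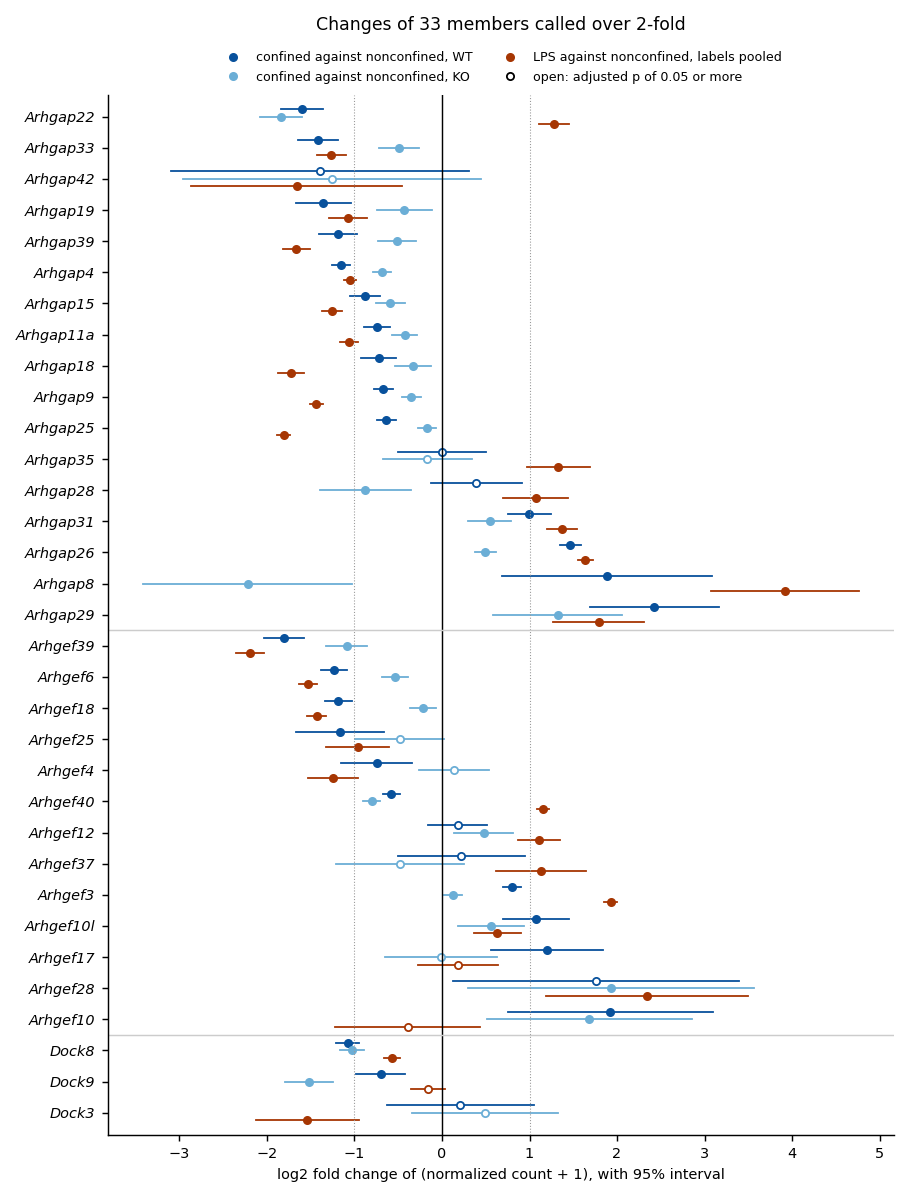
Log2 fold changes with 95% intervals of 33 members called over 2-fold in at least 1 of 7 comparisons. Filled points passed at an adjusted p under 0.05, open points did not, and dotted lines mark 2-fold changes. *Arhgap22* and *Arhgef40* lie below 0 with confinement in both genotypes and above 0 with LPS.

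Among the RhoGAPs that act on Rac, *Arhgap22* differed in its LPS response from *Arhgap25* and *Arhgap15*. *Arhgap22*, a Rac GAP of the FilGAP group, was at 600.4, 609.7 and 579 normalized counts in nonconfined cPLA_2_ WT libraries and at 175, 188 and 229.8 in confined cPLA_2_ WT libraries. *Arhgap22* in cPLA_2_ KO libraries was at 773, 692 and 750.2 nonconfined and 213, 183 and 223 confined, and the 6 LPS libraries ran from 1406 to 1977 with a median of 1596. Every confined library was below every nonconfined one, and every LPS library was above them. Its log2 fold change with confinement was -1.60 (95% interval -1.84 to -1.36, adjusted p = 1.1e-10) in cPLA_2_ WT and -1.84 (95% interval -2.08 to -1.60, adjusted p = 3.0e-11) in cPLA_2_ KO cells, and with LPS it was 1.28 (95% interval 1.11 to 1.45, adjusted p = 4.4e-12). *Arhgap25*, a Rac GAP of leukocytes from the same group, was at 2929.8, 2809.7 and 2924 normalized counts in nonconfined cPLA_2_ WT libraries and at 1869, 1819 and 1886 in confined cPLA_2_ WT libraries. *Arhgap25* in cPLA_2_ KO libraries was at 2903, 2934 and 2851 nonconfined and 2596, 2424 and 2704 confined, and the 6 LPS libraries ran from 767 to 869.8 with a median of 822. From high to low the order was nonconfined, confined cPLA_2_ KO, confined cPLA_2_ WT and LPS, with no overlap between these sets of libraries. *Arhgap25* changed by -0.64 (95% interval -0.74 to -0.53, adjusted p = 8.4e-10) in cPLA_2_ WT and -0.17 (95% interval -0.28 to -0.06, adjusted p = 0.00987) in cPLA_2_ KO cells, and by -1.81 (95% interval -1.89 to -1.73, adjusted p = 7.8e-21) with LPS. *Arhgap15*, another Rac GAP of blood cells, was at 1090.4, 1081 and 1095 normalized counts in nonconfined cPLA_2_ WT libraries and at 594, 589 and 591 in confined cPLA_2_ WT libraries. *Arhgap15* in cPLA_2_ KO libraries was at 1141, 985 and 1056 nonconfined and 719.7, 710.2 and 679 confined, and the 6 LPS libraries ran from 389 to 501 with a median of 461. Confined libraries were below all nonconfined ones, and LPS libraries were lower still. The change of *Arhgap15* was -0.88 (95% interval -1.05 to -0.71, adjusted p = 6.2e-09) in cPLA_2_ WT cells, -0.59 (95% interval -0.76 to -0.42, adjusted p = 3.9e-06) in cPLA_2_ KO cells and -1.26 (95% interval -1.38 to -1.14, adjusted p = 1.4e-14) with LPS. *Arhgap24* itself, which codes for FilGAP, was not called over 2-fold and ranged from 222 to 462 over the 18 libraries.

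Further GAPs are known mainly from blood cells. *Arhgap9*, a RhoGAP of haematopoietic cells, was at 6084, 5858 and 5998 normalized counts in nonconfined cPLA_2_ WT libraries and at 3841, 3765 and 3652 in confined cPLA_2_ WT libraries. *Arhgap9* in cPLA_2_ KO libraries was at 6483, 5991 and 6645 nonconfined and 4942, 4877 and 5162 confined, and the 6 LPS libraries ran from 2154 to 2469.5 with a median of 2244. Its 3 confined cPLA_2_ WT libraries lay below the 3 confined cPLA_2_ KO libraries, which lay below all nonconfined libraries, and LPS gave the lowest values. *Arhgap9* changed by -0.67 (95% interval -0.78 to -0.56, adjusted p = 3.6e-10) with confinement in cPLA_2_ WT cells, by -0.35 (adjusted p = 1.0e-05) in cPLA_2_ KO cells and by -1.44 (95% interval -1.51 to -1.36, adjusted p = 4.9e-19) with LPS. *Arhgap4*, a haematopoietic RhoGAP with an F-BAR domain, was at 3258, 3127 and 2958 normalized counts in nonconfined cPLA_2_ WT libraries and at 1418, 1354 and 1431 in confined cPLA_2_ WT libraries. *Arhgap4* in cPLA_2_ KO libraries was at 3361, 3483 and 3469 nonconfined and 2204, 2079 and 2112 confined, and the 6 LPS libraries ran from 1488 to 1663 with a median of 1580.3. The lowest were the confined cPLA_2_ WT libraries, and confined cPLA_2_ KO libraries stood between LPS and nonconfined libraries without overlap. With the same total per library the difference of *Arhgap4* between confined cPLA_2_ WT and LPS cells turned from -0.17 to 0.12 (adjusted p = 0.0211). The changes of *Arhgap4* were -1.15 (95% interval -1.25 to -1.05, adjusted p = 1.5e-14) in cPLA_2_ WT cells, -0.69 (95% interval -0.79 to -0.59, adjusted p = 2.2e-10) in cPLA_2_ KO cells and -1.05 (95% interval -1.12 to -0.98, adjusted p = 4.3e-17) with LPS. *Arhgap45*, the RhoGAP that is the source of the minor histocompatibility antigen HA-1, was at 14240, 13134 and 13360 normalized counts in nonconfined cPLA_2_ WT libraries and at 10139, 9680.3 and 9839.6 in confined cPLA_2_ WT libraries. *Arhgap45* in cPLA_2_ KO libraries was at 14206, 15191 and 15318 nonconfined and 14721, 14030 and 14420 confined, and the 6 LPS libraries ran from 11635 to 12528 with a median of 11898. All others were above the confined cPLA_2_ WT libraries, while confined and nonconfined cPLA_2_ KO libraries overlapped. Between confined cPLA_2_ WT and LPS cells the difference of *Arhgap45* was 0.01 (adjusted p = 0.824) with the same total per library. *Arhgap45* fell by 0.46 log2 units in cPLA_2_ WT cells (adjusted p = 8.9e-09), its change in cPLA_2_ KO cells was -0.05 (adjusted p = 0.364), and the difference between these changes was 0.41 (adjusted p = 2.5e-05). *Arhgap30* was measured at 5625 to 8361 over all libraries and *Arhgap27* at 2189 to 4599.5, and neither was called over 2-fold.

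*Arhgap26* and the Cdc42 and Rac GAP *Arhgap31* were among the members that rose. *Arhgap26*, the gene of GRAF1, which acts at curved membranes in endocytosis, was at 1889, 1861 and 1997 normalized counts in nonconfined cPLA_2_ WT libraries and at 5489.6, 5247 and 5156 in confined cPLA_2_ WT libraries. *Arhgap26* in cPLA_2_ KO libraries was at 2075, 2162 and 2049 nonconfined and 2844, 3186 and 2840.5 confined, and the 6 LPS libraries ran from 5763 to 6708 with a median of 6243. Nonconfined, confined cPLA_2_ KO, confined cPLA_2_ WT and LPS libraries followed each other from low to high without overlap, though with the same total per library the difference of *Arhgap26* between confined cPLA_2_ WT and LPS cells was 0.06 (adjusted p = 0.4). *Arhgap26* rose by 1.47 (95% interval 1.35 to 1.59, adjusted p = 4.2e-15) with confinement in cPLA_2_ WT cells, by 0.50 (95% interval 0.37 to 0.62, adjusted p = 4.2e-07) in cPLA_2_ KO cells and by 1.63 (95% interval 1.55 to 1.72, adjusted p = 3.3e-19) with LPS. Its close relative *Arhgap10* (GRAF2), not called over 2-fold and named after its values were seen, rose by 0.82 (adjusted p = 8.4e-11) in cPLA_2_ WT and 0.64 (adjusted p = 1.1e-08) in cPLA_2_ KO cells, and *Arhgap42* (GRAF3) stayed between 0 and 14.9 normalized counts in all libraries. *Arhgap31*, the gene of CdGAP, was at 2346, 2186 and 2323 normalized counts in nonconfined cPLA_2_ WT libraries and at 4496, 4574 and 4610.1 in confined cPLA_2_ WT libraries. *Arhgap31* in cPLA_2_ KO libraries was at 1388, 2432 and 1782 nonconfined and 2787, 2512 and 2663 confined, and the 6 LPS libraries ran from 4658 to 6211 with a median of 5252. All confined and LPS libraries were above all nonconfined ones, and confined cPLA_2_ KO libraries were below confined cPLA_2_ WT libraries. The change of *Arhgap31* was 1.00 (95% interval 0.75 to 1.24, adjusted p = 2.5e-07) in cPLA_2_ WT cells, 0.54 (95% interval 0.30 to 0.79, adjusted p = 6.8e-04) in cPLA_2_ KO cells and 1.37 (95% interval 1.20 to 1.54, adjusted p = 2.2e-12) with LPS.

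GAPs that act on RhoA followed several patterns. *Arhgap18* was at 543, 524 and 581 normalized counts in nonconfined cPLA_2_ WT libraries and at 352, 353 and 293 in confined cPLA_2_ WT libraries. *Arhgap18* in cPLA_2_ KO libraries was at 559, 572 and 522 nonconfined and 424, 425 and 463 confined, and the 6 LPS libraries ran from 140 to 186 with a median of 169. The values fell in the order nonconfined, confined cPLA_2_ KO, confined cPLA_2_ WT and LPS, and these sets did not overlap. *Arhgap18* changed by -0.73 (adjusted p = 1.8e-06) in cPLA_2_ WT cells, -0.33 (adjusted p = 0.00838) in cPLA_2_ KO cells and -1.72 (95% interval -1.87 to -1.58, adjusted p = 1.6e-15) with LPS. *Arhgap28* was at 54.9, 59.7 and 55 normalized counts in nonconfined cPLA_2_ WT libraries and at 80.2, 76.3 and 67.5 in confined cPLA_2_ WT libraries. *Arhgap28* in cPLA_2_ KO libraries was at 42.3, 54 and 55.3 nonconfined and 34.5, 34.1 and 16.4 confined, and the 6 LPS libraries ran from 90.4 to 153 with a median of 114. Confined cPLA_2_ KO libraries were below the nonconfined cPLA_2_ KO libraries, confined cPLA_2_ WT libraries were above the nonconfined cPLA_2_ WT libraries, and LPS libraries were above all others. Between confined cPLA_2_ WT and LPS cells the difference of *Arhgap28* was -0.31 (adjusted p = 0.243) with the same total per library. The change of *Arhgap28* with confinement was 0.39 (adjusted p = 0.193) in cPLA_2_ WT and -0.88 (adjusted p = 0.00682) in cPLA_2_ KO cells, and the difference between the genotypes was -1.27 (95% interval -2.01 to -0.53, adjusted p = 0.0107). With LPS its change was 1.068, which was called over 2-fold. *Arhgap35*, the gene of p190-A, which is recruited to adhesions, was at 83.8, 73.3 and 47.2 normalized counts in nonconfined cPLA_2_ WT libraries and at 57, 65.2 and 78.2 in confined cPLA_2_ WT libraries. *Arhgap35* in cPLA_2_ KO libraries was at 58.8, 68.9 and 58.2 nonconfined and 43.2, 82.1 and 46.5 confined, and the 6 LPS libraries ran from 143 to 219 with a median of 156. Confined and nonconfined libraries overlapped, and every LPS library was above them. *Arhgap35* changed with LPS by 1.33 (95% interval 0.97 to 1.69, adjusted p = 5.1e-07), and its change with confinement was 0.00 (adjusted p = 1) in cPLA_2_ WT cells. *Arhgap29*, a RhoA GAP downstream of Rap1, had a mean of 33.3 normalized counts, with 10.7, 17.1 and 11.8 in nonconfined and 56, 89.2 and 80.5 in confined cPLA_2_ WT libraries, a change of 2.43 (95% interval 1.69 to 3.16, adjusted p = 4.7e-06), and its change was 1.32 (adjusted p = 0.0041) with confinement in cPLA_2_ KO cells and 1.79 (adjusted p = 1.4e-06) with LPS.

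*Arhgap11a* and *Arhgap19* act on RhoA in dividing cells. *Arhgap19* was at 889, 939.7 and 775 normalized counts in nonconfined cPLA_2_ WT libraries and at 372, 323 and 319.8 in confined cPLA_2_ WT libraries. *Arhgap19* in cPLA_2_ KO libraries was at 581, 710.3 and 595 nonconfined and 477, 459.6 and 457 confined, and the 6 LPS libraries ran from 258 to 455 with a median of 372. In cPLA_2_ WT cells the confined libraries were below those of cPLA_2_ KO cells and overlapped with LPS libraries, and all of these were below the nonconfined ones. *Arhgap19* fell by 1.36 log2 units in cPLA_2_ WT cells (adjusted p = 1.1e-07), by 0.43 in cPLA_2_ KO cells (adjusted p = 0.0237) and by 1.07 with LPS (adjusted p = 8.6e-09). *Arhgap11a*, at a mean of 2038 normalized counts, changed by -0.74 (adjusted p = 7.9e-09) in cPLA_2_ WT and -0.43 (adjusted p = 3.5e-05) in cPLA_2_ KO cells and by -1.06 (adjusted p = 1.8e-14) with LPS. The summed level of the dividing cell markers, given above, was lower in confined and LPS than in nonconfined libraries as well, and its part in these changes was not tested. *Arhgap33*, a GAP with a sorting nexin domain, was at 398, 348 and 354 normalized counts in nonconfined cPLA_2_ WT libraries and at 127, 139.8 and 145 in confined cPLA_2_ WT libraries. *Arhgap33* in cPLA_2_ KO libraries was at 322, 361 and 301 nonconfined and 233, 253 and 215 confined, and the 6 LPS libraries ran from 135 to 158 with a median of 141. LPS and confined cPLA_2_ WT libraries overlapped, and the latter were below confined cPLA_2_ KO libraries. The change of *Arhgap33* was -1.41 (95% interval -1.64 to -1.18, adjusted p = 4.1e-10) in cPLA_2_ WT cells, -0.49 (95% interval -0.72 to -0.26, adjusted p = 0.00101) in cPLA_2_ KO cells and -1.26 (95% interval -1.43 to -1.10, adjusted p = 2.7e-12) with LPS. *Arhgap39*, the gene of the Rac and Cdc42 GAP Vilse, was at 1081, 1058 and 1015 normalized counts in nonconfined cPLA_2_ WT libraries and at 501, 435 and 454 in confined cPLA_2_ WT libraries. *Arhgap39* in cPLA_2_ KO libraries was at 947, 1058 and 910.3 nonconfined and 719.7, 650.5 and 673 confined, and the 6 LPS libraries ran from 247 to 362 with a median of 326. LPS libraries were the lowest, followed by confined cPLA_2_ WT and confined cPLA_2_ KO libraries, without overlap. *Arhgap39* changed by -1.18 (95% interval -1.40 to -0.97, adjusted p = 3.2e-09) in cPLA_2_ WT cells, -0.51 (95% interval -0.73 to -0.29, adjusted p = 4.0e-04) in cPLA_2_ KO cells and -1.66 (95% interval -1.82 to -1.51, adjusted p = 8.9e-15) with LPS.

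The RhoGEFs include the PIX pair *Arhgef6* and *Arhgef7*, which bind PAK kinases and activate Rac and Cdc42. *Arhgef6* was at 3222, 3388 and 3405 normalized counts in nonconfined cPLA_2_ WT libraries and at 1375, 1469.8 and 1402 in confined cPLA_2_ WT libraries. *Arhgef6* in cPLA_2_ KO libraries was at 2847, 3483 and 2960 nonconfined and 2319.9, 2003 and 2059.5 confined, and the 6 LPS libraries ran from 1059 to 1182 with a median of 1113. The libraries fell in the order nonconfined, confined cPLA_2_ KO, confined cPLA_2_ WT and LPS, without overlap. *Arhgef6* changed by -1.24 (95% interval -1.38 to -1.09, adjusted p = 2.1e-12) in cPLA_2_ WT cells, -0.54 (95% interval -0.69 to -0.39, adjusted p = 1.9e-06) in cPLA_2_ KO cells and -1.53 (95% interval -1.63 to -1.43, adjusted p = 3.3e-17) with LPS. *Arhgef7* was at 2258, 2127 and 2181 normalized counts in nonconfined cPLA_2_ WT libraries and at 1524, 1441 and 1418 in confined cPLA_2_ WT libraries. *Arhgef7* in cPLA_2_ KO libraries was at 1694, 2092 and 1738 nonconfined and 1587, 1571 and 1514 confined, and the 6 LPS libraries ran from 1464 to 1696 with a median of 1639.8. Both confined sets were below all nonconfined libraries, and nonconfined cPLA_2_ KO libraries were below nonconfined cPLA_2_ WT libraries. For *Arhgef7* the change was -0.58 (adjusted p = 2.6e-07) in cPLA_2_ WT cells, -0.24 (adjusted p = 0.00797) in cPLA_2_ KO cells and -0.31 (adjusted p = 7.7e-06) with LPS. Nonconfined cPLA_2_ KO replicate 2, at 2092, was the highest of its condition and makes the fall in cPLA_2_ KO cells larger.

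Several GEFs act on RhoA and so on contractility. *Arhgef18*, the gene of p114RhoGEF, was at 2363, 2238 and 2197 normalized counts in nonconfined cPLA_2_ WT libraries and at 1056, 969 and 964 in confined cPLA_2_ WT libraries. *Arhgef18* in cPLA_2_ KO libraries was at 2502, 2794 and 2608 nonconfined and 2337, 2205 and 2252 confined, and the 6 LPS libraries ran from 778 to 1006 with a median of 909.9. Confined cPLA_2_ WT libraries overlapped with LPS libraries and were below all confined cPLA_2_ KO libraries, which overlapped with nonconfined cPLA_2_ WT libraries. *Arhgef18* changed by -1.19 (95% interval -1.34 to -1.03, adjusted p = 1.0e-11) in cPLA_2_ WT cells and by -0.22 (95% interval -0.37 to -0.06, adjusted p = 0.0204) in cPLA_2_ KO cells, a difference of 0.97 (95% interval 0.75 to 1.19, adjusted p = 2.6e-07), and by -1.43 (95% interval -1.54 to -1.32, adjusted p = 2.7e-16) with LPS. *Arhgef1*, the gene of p115RhoGEF, a GEF of leukocytes that heterotrimeric G proteins of the G12 family activate, was at 15172, 13962 and 14483 normalized counts in nonconfined cPLA_2_ WT libraries and at 11613, 10949 and 11459 in confined cPLA_2_ WT libraries. *Arhgef1* in cPLA_2_ KO libraries was at 15776, 15333 and 15637 nonconfined and 14795, 14030 and 13954 confined, and the 6 LPS libraries ran from 11204 to 11758 with a median of 11436. The confined cPLA_2_ WT libraries overlapped with LPS libraries and were below confined cPLA_2_ KO libraries. *Arhgef1* changed by -0.36 (adjusted p = 1.3e-07) in cPLA_2_ WT cells, -0.13 (adjusted p = 0.0126) in cPLA_2_ KO cells and -0.39 (adjusted p = 4.2e-11) with LPS. *Arhgef12*, a relative of *Arhgef1* also named LARG, was at 212, 167 and 175 normalized counts in nonconfined cPLA_2_ WT libraries and at 220.3, 213 and 192 in confined cPLA_2_ WT libraries. *Arhgef12* in cPLA_2_ KO libraries was at 125, 219.7 and 173 nonconfined and 224, 256 and 223 confined, and the 6 LPS libraries ran from 317 to 442 with a median of 393. Every LPS library was above every other library. The change of *Arhgef12* with LPS was 1.11 (95% interval 0.87 to 1.35, adjusted p = 1.9e-08), and with confinement it was 0.18 (adjusted p = 0.373) in cPLA_2_ WT and 0.47 (adjusted p = 0.0217) in cPLA_2_ KO cells. The size of the change in cPLA_2_ KO cells depends on nonconfined replicate 1, the lowest of all libraries at 125. The remaining gene of that group, *Arhgef11*, was not called over 2-fold and ranged from 450.2 to 729.5. *Arhgef2*, the gene of GEF-H1, which microtubules hold inactive, was at 3074, 2938 and 2966 normalized counts in nonconfined cPLA_2_ WT libraries and at 3900, 3918 and 3957 in confined cPLA_2_ WT libraries. *Arhgef2* in cPLA_2_ KO libraries was at 2419.5, 2945 and 2627 nonconfined and 3084, 2958 and 3067 confined, and the 6 LPS libraries ran from 4836 to 5353 with a median of 5109.8. The 3 confined cPLA_2_ WT libraries were above all nonconfined and confined cPLA_2_ KO libraries, and LPS libraries were higher still, though with the same total per library the difference between confined cPLA_2_ WT and LPS cells was -0.09 (adjusted p = 0.112). *Arhgef2* rose by 0.39 (adjusted p = 5.6e-06) in cPLA_2_ WT cells, 0.19 (adjusted p = 0.00914) in cPLA_2_ KO cells and 0.86 (adjusted p = 3.0e-14) with LPS.

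*Arhgef3*, the gene of XPLN, a GEF for RhoA and RhoB, was at 2571, 2576 and 2575 normalized counts in nonconfined cPLA_2_ WT libraries and at 4649, 4379 and 4468 in confined cPLA_2_ WT libraries. *Arhgef3* in cPLA_2_ KO libraries was at 3096, 2866 and 2906 nonconfined and 3287, 3092 and 3325 confined, and the 6 LPS libraries ran from 9946 to 11148 with a median of 10349. LPS libraries were the highest and confined cPLA_2_ WT libraries came next, both apart from all others. *Arhgef3* changed by 0.80 (95% interval 0.70 to 0.91, adjusted p = 7.7e-12) in cPLA_2_ WT cells, 0.13 (95% interval 0.03 to 0.23, adjusted p = 0.0358) in cPLA_2_ KO cells and 1.93 (95% interval 1.86 to 2.00, adjusted p = 1.0e-21) with LPS. With the same total per library its change in cPLA_2_ KO cells no longer passed (0.09, adjusted p = 0.0659). *Arhgef40*, the gene of the RhoA GEF Solo, was at 4862, 4447 and 4441 normalized counts in nonconfined cPLA_2_ WT libraries and at 3176, 2909 and 3116 in confined cPLA_2_ WT libraries. *Arhgef40* in cPLA_2_ KO libraries was at 4429, 4592 and 4417 nonconfined and 2701, 2522 and 2470.5 confined, and the 6 LPS libraries ran from 9788 to 10385 with a median of 10093. Confined cPLA_2_ KO libraries were the lowest, then confined cPLA_2_ WT and nonconfined libraries, and LPS libraries were the highest, without overlap. With the same total per library the difference of *Arhgef40* between the confined genotypes no longer passed (-0.10, adjusted p = 0.0567). The change of *Arhgef40* was -0.58 (95% interval -0.68 to -0.48, adjusted p = 1.2e-09) in cPLA_2_ WT cells, -0.81 (95% interval -0.91 to -0.71, adjusted p = 1.4e-11) in cPLA_2_ KO cells and 1.16 (95% interval 1.08 to 1.23, adjusted p = 5.9e-18) with LPS, so that confined cPLA_2_ WT cells differed from LPS cells by -1.72 (adjusted p = 2.6e-18). *Arhgef39* was at 685, 733 and 771 normalized counts in nonconfined cPLA_2_ WT libraries and at 232, 192 and 201 in confined cPLA_2_ WT libraries. *Arhgef39* in cPLA_2_ KO libraries was at 791, 692 and 735 nonconfined and 349, 328 and 364 confined, and the 6 LPS libraries ran from 145 to 192 with a median of 151. Confined cPLA_2_ WT libraries overlapped with LPS libraries and were below confined cPLA_2_ KO libraries, which were below all nonconfined ones. *Arhgef39* changed by -1.81 (95% interval -2.04 to -1.57, adjusted p = 9.5e-12) in cPLA_2_ WT cells, -1.09 (95% interval -1.32 to -0.85, adjusted p = 7.0e-08) in cPLA_2_ KO cells and -2.19 (95% interval -2.36 to -2.03, adjusted p = 2.3e-16) with LPS.

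Less abundant GEFs were called as well. *Arhgef4*, the gene of Asef, which the tumour suppressor APC binds, was at 155, 127 and 142 normalized counts in nonconfined cPLA_2_ WT libraries and at 114, 81.5 and 62.8 in confined cPLA_2_ WT libraries. *Arhgef4* in cPLA_2_ KO libraries was at 186, 182 and 154 nonconfined and 179, 180.2 and 216 confined, and the 6 LPS libraries ran from 53.3 to 81.4 with a median of 63.6. Confined cPLA_2_ WT libraries were below nonconfined cPLA_2_ WT and confined cPLA_2_ KO libraries and overlapped with LPS libraries. The log2 fold change of *Arhgef4* was -0.75 (95% interval -1.15 to -0.34, adjusted p = 0.00244) in cPLA_2_ WT cells and 0.14 (adjusted p = 0.596) in cPLA_2_ KO cells, a difference of 0.88 (adjusted p = 0.0209). With LPS it was -1.245, which was called over 2-fold. *Arhgef25*, the gene of GEFT, was at 70.9, 81 and 93.4 normalized counts in nonconfined cPLA_2_ WT libraries and at 30.9, 38.6 and 37.9 in confined cPLA_2_ WT libraries. *Arhgef25* in cPLA_2_ KO libraries was at 60.3, 64.2 and 71.8 nonconfined and 62.6, 35.2 and 45.6 confined, and the 6 LPS libraries ran from 30.8 to 46.9 with a median of 34.7. Confined cPLA_2_ WT libraries were below all nonconfined ones and overlapped with confined cPLA_2_ KO libraries. The log2 fold change of *Arhgef25* was -1.17 (95% interval -1.67 to -0.66, adjusted p = 3.2e-04) in cPLA_2_ WT cells, -0.48 (adjusted p = 0.115) in cPLA_2_ KO cells and -0.96 (adjusted p = 3.6e-05) with LPS. *Arhgef10l* was at 98.3, 84.4 and 101 normalized counts in nonconfined cPLA_2_ WT libraries and at 194, 202 and 203 in confined cPLA_2_ WT libraries. *Arhgef10l* in cPLA_2_ KO libraries was at 70.5, 66.1 and 77.6 nonconfined and 97.1, 93.8 and 128 confined, and the 6 LPS libraries ran from 97.3 to 168 with a median of 122. Every other library was below the 3 confined cPLA_2_ WT libraries. The change of *Arhgef10l* was 1.07 (95% interval 0.70 to 1.45, adjusted p = 2.9e-05) in cPLA_2_ WT cells, 0.55 (adjusted p = 0.0158) in cPLA_2_ KO cells and 0.63 (adjusted p = 1.5e-04) with LPS.

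Members called over 2-fold with a mean under 50 normalized counts numbered 8, and their counting error is larger. *Arhgef10* was at 6.1, 11.9 and 17.7 in nonconfined and 46.4, 36 and 52.1 in confined cPLA_2_ WT libraries, and at 4.7, 7.45 and 19.4 and 28.1, 36.3 and 29.2 in cPLA_2_ KO libraries, without overlap in either genotype. Its change was 1.92 (adjusted p = 0.00597) in cPLA_2_ WT and 1.68 (adjusted p = 0.0181) in cPLA_2_ KO cells, where it no longer passed without nonconfined replicate 1 (1.28), nonconfined replicate 2 (1.57) or confined replicate 2 (1.57). The 6 LPS libraries of *Arhgef10* ran from 2.29 to 19.1 with a median of 7.86, and confined cPLA_2_ WT cells differed from them by 2.45 (adjusted p = 2.2e-04). *Arhgef17* was at 38.1, 22.2 and 43.2 in nonconfined and 75.4, 90.9 and 67.5 in confined cPLA_2_ WT libraries, and at 46.2, 26.1 and 31.1 and 30.2, 29.9 and 40.1 in cPLA_2_ KO libraries, so that the confined cPLA_2_ WT libraries stood above the others of these 4 conditions. The difference between the genotypes in its change was -1.21 (adjusted p = 0.0445), and it no longer passed with no filter, with the same total per library (-1.03) or when any of 9 of the 12 libraries was left out alone, with values from -1.40 to -0.93 over all 12. *Arhgap8* was at 1.52, 5.12 and 1.97 in nonconfined and 10.6, 10.3 and 16.6 in confined cPLA_2_ WT libraries, at 11, 1.86 and 1.94 in nonconfined cPLA_2_ KO libraries, and at 0 in all 3 confined cPLA_2_ KO libraries. Against a floor of 3 reads in each library, *Arhgap8* was at least 4.09-fold lower in confined cPLA_2_ KO than in confined cPLA_2_ WT cells. Set against the mean of nonconfined cPLA_2_ KO cells, the same floor, 3.06 normalized counts, gives a bound of 1.61-fold. This bound rests on nonconfined cPLA_2_ KO replicate 1, since replicates 2 and 3 lay below the floor. The fall in cPLA_2_ KO cells is 1 of the 6 counted over 2-fold there, a size that the bound does not reach, and it no longer passed with a pseudocount of 5. LPS libraries of *Arhgap8* ran from 36.6 to 90.6 with a median of 68.6, above all nonconfined and confined libraries, and its change with LPS was 3.915. *Arhgef28* stayed at or below 27.2 normalized counts in every library, and its change with confinement in cPLA_2_ KO cells was 1.93 (adjusted p = 0.0496). That call was lost when confined cPLA_2_ KO replicate 1 (1.64), 2 (2.02) or 3 (2.12) or nonconfined cPLA_2_ KO replicate 1 (1.17) was left out. With LPS, *Arhgef28* changed by 2.35 (adjusted p = 7.3e-04), *Arhgef37* by 1.13 (adjusted p = 3.4e-04), *Arhgap42* by -1.66 (adjusted p = 0.0141) and *Dock3* by -1.54 (adjusted p = 5.2e-05). Of these, *Arhgap42* (-1.35) and *Dock3* (-0.56) did not pass between libraries labelled LPS cPLA_2_ WT and nonconfined cPLA_2_ WT libraries alone. *Arhgap42* passed the filter through nonconfined libraries only, and its LPS libraries stayed at or below 6.46. *Arhgef28* passed it through confined and LPS libraries only, and its nonconfined libraries stayed at or below 6.82. *Arhgap8* passed the filter through LPS and confined cPLA_2_ WT libraries and nonconfined cPLA_2_ KO replicate 1. *Arhgap42*, *Arhgef28* and *Arhgap8* are in the counts over 2-fold, but the filter followed the groups where they are high, so their changes are not used as support.

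Of the 11 DOCK genes, 0 passed as higher and 6 as lower with confinement of cPLA_2_ WT cells, also 0 and 6 in cPLA_2_ KO cells, and 3 and 4 with LPS. With the same total per library none of the 3, *Dock5*, *Dock6* and *Dock10*, passed as higher. Of all genes 28.2% and 28.4%, 22.8% and 23.4%, and 37.2% and 34.3% passed in these directions. The median absolute LPS change of the DOCK genes was 0.182 beside 0.594 for all genes, both on the size factor scale. With the same total per library the LPS change of *Dock5* moved from 0.18 to -0.31 and that of *Dock10* from 0.50 to -0.0005. The median of all genes was then -0.461, so the DOCK median depends on the scaling. *Dock8*, a Cdc42 GEF that DCs need to move through narrow spaces, was at 5316, 5178 and 5167 normalized counts in nonconfined cPLA_2_ WT libraries and at 2338, 2584 and 2503 in confined cPLA_2_ WT libraries. *Dock8* in cPLA_2_ KO libraries was at 4925, 5169 and 5314 nonconfined and 2651, 2452 and 2453 confined, and the 6 LPS libraries ran from 3024 to 3824 with a median of 3474. Confined libraries of both genotypes overlapped with each other and were below all LPS libraries, which were below all nonconfined ones. *Dock8* changed by -1.08 (95% interval -1.21 to -0.94, adjusted p = 4.6e-12) in cPLA_2_ WT and -1.03 (95% interval -1.16 to -0.89, adjusted p = 2.8e-11) in cPLA_2_ KO cells and by -0.57 (95% interval -0.67 to -0.48, adjusted p = 2.0e-10) with LPS, and the difference between the genotypes was 0.05 (adjusted p = 0.747). *Dock9*, a Cdc42 GEF of the zizimin group, was at 221, 201 and 212 normalized counts in nonconfined cPLA_2_ WT libraries and at 129, 121 and 139 in confined cPLA_2_ WT libraries. *Dock9* in cPLA_2_ KO libraries was at 184, 223 and 209 nonconfined and 68, 66.1 and 79.3 confined, and the 6 LPS libraries ran from 166 to 208 with a median of 188. Confined cPLA_2_ KO libraries were below confined cPLA_2_ WT libraries, which were below all nonconfined and LPS libraries. With the same total per library the difference of *Dock9* between confined cPLA_2_ WT and LPS cells no longer passed (-0.23, adjusted p = 0.0845). The log2 fold change of *Dock9* was -0.70 (95% interval -0.98 to -0.43, adjusted p = 1.1e-04) in cPLA_2_ WT and -1.52 (95% interval -1.79 to -1.24, adjusted p = 5.6e-09) in cPLA_2_ KO cells, a difference of -0.81 (95% interval -1.20 to -0.42, adjusted p = 0.00232), and -0.16 (adjusted p = 0.135) with LPS.

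*Dock2*, the Rac GEF of leukocytes, was at 1547, 1557 and 1515 normalized counts in nonconfined cPLA_2_ WT libraries and at 1043, 1067 and 1145 in confined cPLA_2_ WT libraries. *Dock2* in cPLA_2_ KO libraries was at 1071, 1704 and 1408 nonconfined and 1255, 1159 and 1268 confined, and the 6 LPS libraries ran from 1253 to 1479 with a median of 1384. Confined cPLA_2_ WT libraries were below nonconfined cPLA_2_ WT libraries, while nonconfined cPLA_2_ KO replicate 1 lay among the confined libraries. The log2 fold change of *Dock2* was -0.51 (adjusted p = 2.3e-04) in cPLA_2_ WT cells, -0.16 (adjusted p = 0.215) in cPLA_2_ KO cells and -0.08 (adjusted p = 0.352) with LPS. Nonconfined cPLA_2_ KO replicate 1, at 1071, makes the fall in cPLA_2_ KO cells smaller, so the contrast between the genotypes depends on that library. *Dock10*, a further zizimin, was at 4765, 4934 and 4779.8 normalized counts in nonconfined cPLA_2_ WT libraries and at 4894, 5104 and 4878 in confined cPLA_2_ WT libraries. *Dock10* in cPLA_2_ KO libraries was at 3659, 5124 and 4281 nonconfined and 4498, 4478 and 4439.9 confined, and the 6 LPS libraries ran from 5805 to 7470.4 with a median of 6295. Confined and nonconfined libraries overlapped, and LPS libraries were above both. The change of *Dock10* was 0.04 (adjusted p = 0.708) with confinement in cPLA_2_ WT cells and 0.50 (adjusted p = 7.7e-08) with LPS, and the latter became -0.0005 (adjusted p = 0.994) with the same total per library. *Dock11*, the remaining zizimin, was at 1702, 1802 and 1732 normalized counts in nonconfined cPLA_2_ WT libraries and at 1611, 1736 and 1496 in confined cPLA_2_ WT libraries. *Dock11* in cPLA_2_ KO libraries was at 1831, 1811 and 1805 nonconfined and 1425, 1606 and 1418 confined, and the 6 LPS libraries ran from 1605 to 1759 with a median of 1682. Above all others were the nonconfined cPLA_2_ KO libraries, confined cPLA_2_ KO libraries were below all nonconfined ones, and confined cPLA_2_ WT libraries overlapped with nonconfined cPLA_2_ WT, confined cPLA_2_ KO and LPS libraries. The log2 fold change of *Dock11* was -0.11 (adjusted p = 0.105) in cPLA_2_ WT cells, -0.29 (adjusted p = 3.3e-04) in cPLA_2_ KO cells and -0.08 (adjusted p = 0.104) with LPS. Of the Rac GEFs that bind ELMO proteins, *Dock1* changed by -0.98 (adjusted p = 9.2e-16) with LPS, *Dock4* by -0.65 (adjusted p = 0.00669) with confinement of cPLA_2_ KO cells, and *Dock5* ranged from 2458 to 4132 over the 18 libraries.

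**Figure D3:**
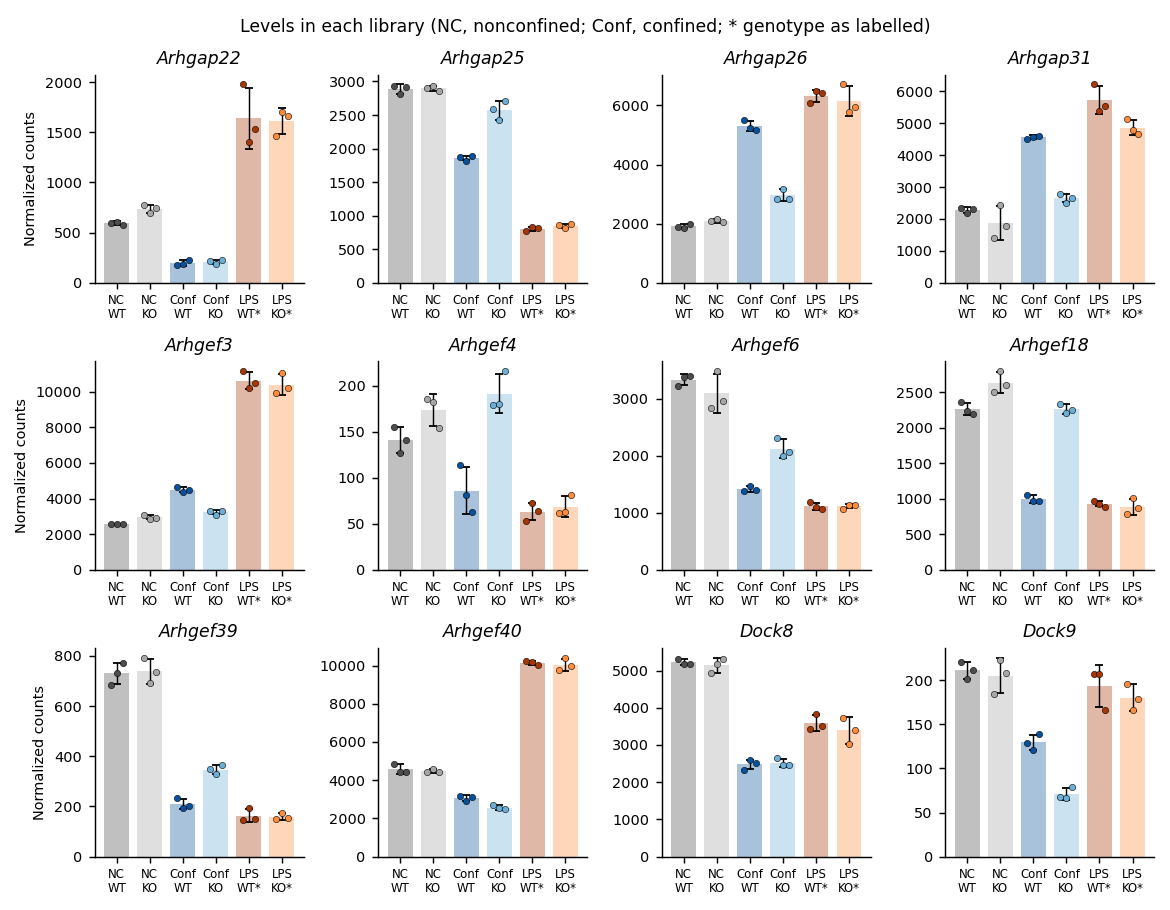
Normalized counts of 12 members in each of the 18 libraries. Points are libraries, bars the mean of 3 libraries and whiskers the SD, and the genotype of LPS libraries is as labelled. *Arhgap22* ran from 175 to 229.8 in confined and from 1406 to 1977 in LPS libraries.

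The next members were called over 2-fold in no comparison. Over the 18 libraries *Arhgap1* ranged from 1471 to 2477 normalized counts, *Arhgap5* from 1782 to 2283 and *Arhgap17* from 2086 to 4211. *Arhgap21* lay between 619 and 1129, *Arhgap23* between 849 and 1365, *Arhgap6* between 139.6 and 338, *Arhgap32* between 12.8 and 49.1, and *Arhgap12* between 75.6 and 148. Of these *Arhgap21* rose in both genotypes with confinement, by 0.43 and 0.41, and *Arhgap1* and *Arhgap17* fell in cPLA_2_ WT cells by 0.36 and 0.25. *Dock6* ranged from 64.7 to 194 over the 18 libraries.

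The effect of the genotype was compared within each treatment. In nonconfined cells 1 of 59 members passed as higher in cPLA_2_ KO than in cPLA_2_ WT libraries and 3 as lower, where 4.78% and 4.11% of all genes did, and 0 members were over 2-fold in either direction, beside 0.85% and 0.302% of all genes. The 4 were *Arhgef3* at 0.20 (adjusted p = 0.0148), *Arhgef7* at -0.26 (adjusted p = 0.0239), *Dock1* at -0.24 (adjusted p = 0.00886) and *Arhgap1* at -0.22 (adjusted p = 0.013). These counts moved with single libraries: 0 of these 4 passed without cPLA_2_ KO replicate 1, and lower members came to 0 without that library, 13 without cPLA_2_ KO replicate 2 and 1 without cPLA_2_ KO replicate 3, and higher members to 2 without cPLA_2_ WT replicate 1 and 0 without cPLA_2_ WT replicate 2 or 3. At an unadjusted p under 0.05 limma gave 20 members and 4005 of 17875 genes, and at an adjusted p under 0.05 edgeR gave 7 members and 1576 genes and DESeq2 11 and 2028. In confined cells 18 members were higher and 16 lower in cPLA_2_ KO libraries, beside 18.8% and 20.6% of all genes, with 2 and 4 over 2-fold beside 2.79% and 7.31%. With the same total per library the split was 26 higher and 11 lower, and the median of all genes was 0.193.

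Of the members over 2-fold between confined genotypes, *Arhgef18* at 1.18 (adjusted p = 1.9e-11) and *Arhgef4* at 1.18 (adjusted p = 4.4e-05) were higher in cPLA_2_ KO libraries, and *Arhgap28* at -1.44 (adjusted p = 9.0e-05), *Arhgap29* at -1.66 (adjusted p = 7.2e-04) and *Arhgef17* at -1.20 (adjusted p = 0.00349) were lower, as was *Arhgap8*. Without confined cPLA_2_ WT replicate 3 the higher members over 2-fold came to 1. The interaction, the change with confinement in cPLA_2_ KO cells minus that in cPLA_2_ WT cells, passed as higher for 18 and lower for 9 members, beside 10.2% and 15.6% of all genes. It was over 2-fold for 0 and 3 members, beside 1.11% and 6.56%. With the same total per library, where the median of all genes was 0.236, these counts were 23 and 5, with 4 higher over 2-fold. The number higher over 2-fold was 2 without confined cPLA_2_ WT replicate 1, 2 without nonconfined cPLA_2_ KO replicate 2 and 1 without nonconfined cPLA_2_ WT replicate 3. Among the members with an interaction above 0 were *Arhgef18* at 0.97 (adjusted p = 2.6e-07), *Arhgap33* at 0.93 (adjusted p = 9.8e-05) and *Arhgap19* at 0.92 (adjusted p = 0.00241). *Arhgap22* and *Dock8* fell by over 2-fold in both genotypes, and their interactions of -0.24 (adjusted p = 0.316) and 0.05 (adjusted p = 0.747) did not pass. Of the markers given above, 8 of 8 for neutrophils, 3 of 4 for eosinophils and 4 of 5 for mast cells and basophils were higher in confined cPLA_2_ KO than in confined cPLA_2_ WT cells, and 1 of 4 for eosinophils was lower.

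Between libraries labelled LPS cPLA_2_ KO and LPS cPLA_2_ WT, limma called 0 of 17875 genes (0%) and 0 of 59 members at an adjusted p under 0.05, and edgeR and DESeq2 also called 0. At an unadjusted p under 0.05 limma gave 890 genes and 5 members, edgeR 812 and 5, and DESeq2 831 and 5. Without the LPS libraries that lack *Ddx3y* (labelled cPLA_2_ WT replicate 2 and cPLA_2_ KO replicate 1), a choice made after the data were seen, 24 members passed as higher and 26 as lower with LPS, with 11 and 15 over 2-fold.

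Other genes of the same cycle were counted in lists, with genes named if their mean was at least 50 normalized counts, beside which 28.2% of all genes rose and 28.4% fell in confined cPLA_2_ WT cells and 37.2% and 34.3% with LPS. Both RhoGDIs tested, *Arhgdia* and *Arhgdib*, which hold GTPases in the cytosol, passed as lower in confined cPLA_2_ WT cells, and neither was over 2-fold. In confined cPLA_2_ KO cells they were at -0.14 and -0.08, of which the latter did not pass, and with LPS *Arhgdia* rose by 0.32 and *Arhgdib* fell by 0.22. Of 30 other RhoGEFs, 10 rose and 13 fell in confined cPLA_2_ WT cells, with *Mcf2l* at 1.48, *Fgd6* at 1.15, *Fgd2* at -2.47 and *Plekhg5* at -2.33. With LPS 13 rose and 13 fell, with *Spata13* at 2.42, *Swap70* at 1.73, *Plekhg5* at -2.71 and *Fgd2* at -1.88, while *Plekhg6*, with a mean of 16.7 and named after its values were seen, was at -4.27.

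Of 19 other RhoGAPs, 9 rose and 9 fell in confined cPLA_2_ WT cells, with *Dlc1* at 4.01, *Syde2* at -2.19 and *Srgap3* at -1.54. With LPS 9 rose and 8 fell, with *Dlc1* at 4.51, *Tagap* at 1.36, *Syde2* at -2.12 and *Chn2* at -1.96. *Srgap1*, also under that mean and named after its values were seen, was at 2.71 in confined cPLA_2_ WT cells and 3.31 with LPS. Of 8 partners of DOCK proteins, 4 rose and 2 fell in confined cPLA_2_ WT cells, with *Bcar1* at 1.13, and 5 rose and 2 fell with LPS, with *Bcar1* at 4.29 and *Stk4* at 1.22.

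All 59 members were found by symbol and position in the GENCODE annotation of GRCm39. *Arhgap22* lies on chromosome 14 from 32938779 to 33091893, *Arhgap25* on chromosome 6 from 87435527 to 87510243, *Arhgef3* on chromosome 14 from 26836854 to 27125861, *Arhgef18* on chromosome 8 from 3403414 to 3506604, *Arhgef40* on chromosome 14 from 52222289 to 52243704, *Dock8* on chromosome 19 from 24976892 to 25179796 and *Dock9* on chromosome 14 from 121775779 to 122035146. Among the members on the X chromosome are *Arhgap4*, *Arhgap6*, *Arhgef6* and *Dock11*. For these too, genotype and the sex of the donors cannot be told apart. Exon bases are shared with a protein-coding gene on the same strand by 3 members and on the opposite strand by 13. Opposite protein-coding genes covered 35.45% of the exon bases of *Arhgap1* (*Atg13*), 24.92% of those of *Arhgap4* (*Avpr2*), 22.55% of those of *Arhgef4* (*Fam168b*) and 20.74% of those of *Dock11* (*Gm61610*), and opposite long noncoding RNAs 54.56% of those of *Arhgef25* (*Gm57007*) and 28.62% of those of *Arhgap22* (*Gm15512*). *Fam168b* had a mean of 11100 normalized counts in nonconfined cPLA_2_ WT libraries, where *Arhgef4* had 141. In nonconfined cPLA_2_ KO, confined cPLA_2_ WT and confined cPLA_2_ KO libraries *Fam168b* had means of 11600, 10000 and 12400, and *Arhgef4* 174, 86.1 and 192. In libraries labelled LPS cPLA_2_ WT and LPS cPLA_2_ KO the means were 9480 and 9400 for *Fam168b*, and 63.3 and 68.6 for *Arhgef4*. Library preparation kept the strand of the RNA. The strand setting used for counting is not given in the sources used here, so whether reads of such genes entered these members' values was not tested.

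RefSeq promoter windows (GRCm38.p6, 250 bases before to 50 after a start) were at hand for 42 members in 70 windows. The core of the interferon-stimulated response element (ISRE), GAAANNGAA on either strand, was in 5 of 70 windows, 7.14% beside 8.56% of all 32851 windows, in *Arhgap6*, *Arhgap15*, *Arhgap21*, *Arhgap25* and *Arhgef6*. On either strand as well, the kappaB core GGANNTTCC was in 1 window (1.43% beside 4.26%), that of *Arhgef2*, the cyclic AMP response element TGACGTCA in 1 (1.43% beside 1.79%), that of *Arhgef7*, and the CArG box in 0 (0% beside 1.63%). *Arhgap21*, which holds the ISRE core but is not shown, rose with confinement, and its LPS change depended on the scaling, as given above. *Arhgap6*, which holds it and is not shown either, had means of 24.0 normalized counts per kb in nonconfined and 16.5 in confined cPLA_2_ WT libraries. In cPLA_2_ KO libraries its means were 15.9 and 15.1, and in libraries labelled LPS cPLA_2_ WT and LPS cPLA_2_ KO they were 17.8 and 15.6. Windows are shown for 3 members that hold it and fell in confined and LPS cells, and for the GEF-H1 and beta-PIX genes, with the matched letters in capitals. They are *Arhgap15* chr2:43787105-43787404, plus strand, *Arhgap25* chr6:87496278-87496577, minus strand, *Arhgef6* chrX:57338680-57338979, minus strand, *Arhgef2* chr3:88629223-88629522, plus strand and *Arhgef7* chr8:11779034-11779333, plus strand, each printed 5′ to 3′ on its gene's strand. A match describes the sequence and shows no binding.
Arhgap15: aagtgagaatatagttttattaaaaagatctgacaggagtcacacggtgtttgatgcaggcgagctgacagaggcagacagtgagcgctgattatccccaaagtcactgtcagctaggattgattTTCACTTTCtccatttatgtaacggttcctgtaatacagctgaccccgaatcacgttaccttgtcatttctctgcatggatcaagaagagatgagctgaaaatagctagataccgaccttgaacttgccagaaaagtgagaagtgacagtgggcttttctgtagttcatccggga
Arhgap25: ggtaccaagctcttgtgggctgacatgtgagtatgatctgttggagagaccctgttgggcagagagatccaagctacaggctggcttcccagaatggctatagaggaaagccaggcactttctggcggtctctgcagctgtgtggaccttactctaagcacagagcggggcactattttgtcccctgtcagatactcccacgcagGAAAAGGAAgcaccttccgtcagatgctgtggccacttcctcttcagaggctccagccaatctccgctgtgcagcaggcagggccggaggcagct
Arhgef6: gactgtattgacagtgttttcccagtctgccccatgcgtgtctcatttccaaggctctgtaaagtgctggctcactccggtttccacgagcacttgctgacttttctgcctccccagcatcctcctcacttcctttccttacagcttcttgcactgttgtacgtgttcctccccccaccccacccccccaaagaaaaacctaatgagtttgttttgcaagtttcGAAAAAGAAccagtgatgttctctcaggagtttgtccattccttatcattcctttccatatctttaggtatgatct
Arhgef2: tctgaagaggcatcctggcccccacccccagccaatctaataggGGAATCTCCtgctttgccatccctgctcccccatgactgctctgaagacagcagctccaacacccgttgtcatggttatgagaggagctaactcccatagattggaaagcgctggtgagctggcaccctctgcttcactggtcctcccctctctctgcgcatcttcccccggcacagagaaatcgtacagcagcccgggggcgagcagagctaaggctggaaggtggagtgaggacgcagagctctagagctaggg
Arhgef7: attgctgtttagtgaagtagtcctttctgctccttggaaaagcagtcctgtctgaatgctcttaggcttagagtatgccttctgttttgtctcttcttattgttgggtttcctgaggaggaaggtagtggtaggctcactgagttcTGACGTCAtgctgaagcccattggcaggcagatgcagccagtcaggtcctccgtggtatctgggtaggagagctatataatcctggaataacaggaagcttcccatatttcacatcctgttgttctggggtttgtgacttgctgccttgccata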

How the data were processed

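Each deposited value is a gene's signal, a read count over the DESeq2 size factor of its library, which the authors obtained per the labels and methods with STAR 2.7.5a on mm39, featureCounts 1.5.0 and R 3.5.3, versions as in the submitters' processing notes. There is no scaling for gene length. Multiplied by a factor per library, 100% of the values were whole within 0.01 reads, so reads could be recovered.

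The members and the gene lists were chosen with earlier results of these data known. The 17875 genes that reached 10 normalized counts in 3 or more of the 18 libraries entered a single limma 3.58.1 fit (R 4.3.3) on the log2 scale after adding 1, with a mean per condition and eBayes with a trend. Adjustment by Benjamini and Hochberg covered all these genes in each of 8 comparisons. Members called over 2-fold in any of the first 7 comparisons are named, with the exception of items not reported here, with values per library for up to 25 of them whose mean was at least 50. *Arhgef1*, *Arhgef2*, *Arhgef7*, *Dock2*, *Dock10*, *Dock11* and *Arhgap45* are named for known roles, and of each list given the 2 largest rises and falls called among genes with a mean of at least 50.

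Recomputed settings were a pseudocount of 0.5 or 5, a filter of 100 or none, libraries scaled to equal totals or by TMM, recovered reads in edgeR 4.0.16 and in DESeq2 1.42.0, the compared groups fitted alone, a replicate block, a fold of 1.5 with an unadjusted p of 0.05, LPS within each labelled genotype, and each library left out. Chosen after seeing the data, LPS was also fitted without the libraries lacking *Ddx3y* and with 3 pairs of libraries averaged. For confinement of WT cells edgeR called 10102 genes and limma 10113 at an adjusted p under 0.05. The pipeline was tested on simulated data. Exon positions came from the GENCODE annotation of GRCm39, and matplotlib 3.10.9 in Python 3.11.15 drew the figures. The authors' filter on intergenic signal was not repeated.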

Additional observations from a re-analysis of the deposited data

Results flagged for a closer look

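For 3 members the change with confinement differed by over 2-fold between the genotypes at an adjusted p under 0.05, and each difference is given as the log2 change in KO cells minus that in WT cells. It was -4.104 for *Arhgap8*, whose confined KO libraries were all at 0, so that the size of this value depends on the pseudocount. *Arhgap8* passed the filter mainly through LPS and confined WT libraries, so its value is not used as support. The difference was -1.269 for *Arhgap28* and -1.212 for *Arhgef17*. The value of *Arhgef17* no longer passed with no filter, with the same total per library, or without any of 9 of the 12 libraries when each was left out alone.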

How the results depend on the processing

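Of 1466 recomputed changes of members called over 2-fold, 1437 kept their direction and passed, 29 kept their direction without passing and 0 reversed. These 29 belong to 6 changes: *Arhgef28*, *Arhgap8* and *Arhgef10* with confinement in KO cells, the interaction of *Arhgef17*, and *Arhgap42* and *Dock3* with LPS. Of 612 recomputed counts of members, 570 stayed within 1.5 times. The others follow, with the reported count in parentheses, and the cause was not tested unless a cause is named.

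With a filter of 100 normalized counts, which tests fewer genes, confinement of WT cells gave 7 (11) higher members and 2 (6) over 2-fold, that of KO cells 0 (3) higher over 2-fold, the interaction 1 (3) lower over 2-fold, KO against WT 2 (1) higher in nonconfined and 1 (4) lower over 2-fold in confined cells, and confined WT against LPS 1 (4) higher over 2-fold. With a fold of 1.5 and an unadjusted p of 0.05 in place of the 2-fold call, which is a looser rule, members higher and lower were 10 (6) and 18 (11) for confinement of WT cells, 7 (0) and 7 (3) for the interaction, 7 (2) and 9 (4) for KO against WT in confined cells, and 9 (4) and 12 (6) for confined WT against LPS. Lower members were 12 (6) for confinement of KO cells, 1 (0) for KO against WT in nonconfined cells and 1 (0) in LPS cells.

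With the same total per library the interaction gave 5 (9) lower and 4 (0) higher over 2-fold, LPS 14 (24) higher and 5 (12) over 2-fold, and confined WT against LPS 12 (26) lower and 7 (4) higher over 2-fold. Members higher in nonconfined KO cells were 2 (1) with TMM, 3 with edgeR, 5 with DESeq2 and 3 with only the groups compared, and those lower were 6 (3) with DESeq2.

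Without each library in turn, members higher with confinement of KO cells ran from 7 to 10 (11), and those over 2-fold from 0 to 3 (3). The interaction ran from 0 to 2 (0) higher over 2-fold, KO against WT from 0 to 2 (1) higher and 0 to 13 (3) lower in nonconfined cells, and from 1 to 2 (2) higher over 2-fold in confined cells.

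Whether replicate numbers pair libraries is not known. Residual correlations of equal numbers between confined KO and WT libraries were 0.338, 0.208 and 0.0402. Unequal numbers were not compared, so these values do not decide it, and the main fit has no replicate block. With a replicate block 24 of 27 members still passed the interaction, 33 of 34 passed KO against WT in confined cells and 37 of 38 confinement of KO cells, where the call of *Arhgef28* was lost. With LPS the block gave 24 higher and 26 lower, as without it. With the LPS libraries averaged in 3 pairs, a choice made after seeing the data, these counts were also 24 and 26, and between confined WT and LPS cells they were 17 (17) and 23 (26).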
